A study of Mus musculus with 9 samples.

Results

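The Srsf genes encode SR proteins, splicing factors with an RNA recognition motif at the N terminus and a C-terminal domain rich in arginine and serine. Here they are followed through 39 introns of 10 genes (Srsf1 to Srsf7, Srsf9, Srsf10 and Srsf11), out of 22228 introns of 7016 genes in the authors' table of intron reads. An intron was taken when its identifier carried the symbol of 1 of these genes, whatever its reads, but the genes themselves were chosen with earlier results of these data known. SR proteins bind exons and recruit the splicing machinery to nearby splice sites, and several also accompany messenger RNA to the cytoplasm. Srpk kinases phosphorylate their serines mostly in the cytoplasm and Clk kinases in the nucleus. Many SR genes are known to limit their own output through exons that carry an early stop codon, or through introns left in the transcript, so that the RNA is degraded or stays in the nucleus.

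The v6.5 line of mouse embryonic stem cells, kept on gelatin-coated plastic, was the source of the polyadenylated RNA. One treatment was KH-CB19, a Clk kinase inhibitor, and the other was the same volume of DMSO, its solvent. The labels print the final concentration of KH-CB19 as 10 mM, but a micro sign may have been lost there, so the dose is uncertain. For each treatment, harvest was immediate (0 h) or followed 2 h later. Each of the 4 groups held 2 libraries, made on separate biological replicates per the labels, and only the authors' mean of the 2 was analysed, so that no spread between replicates can be set beside any value. A further untreated library was not analysed here.

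All 8 libraries had RNA integrity numbers between 8.8 and 9.4. The authors' observed 0 h means summed to 1002850 reads over 18740 introns in the KH-CB19 group and to 1286589 reads over 21568 introns in the DMSO group. The normalised 2 h means summed to 392295 reads in KH-CB19 and 369104 reads in DMSO, over detained introns only. Of 10 markers of embryonic stem cells, 9 had an intron in the table, Pou5f1 and Nanog among them. Of 10 fibroblast markers 2 did, Fn1 and Sparc, and of 12 markers of the germ layers 0 did. These counts do not measure amounts of RNA. The listed introns of the 9 stem cell markers held 4305 observed reads in KH-CB19 and 6221 in DMSO at 0 h. Those of Fn1 and Sparc held 2572 in KH-CB19 and 3292 in DMSO.

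A detained intron, in the authors' term, is one left in polyadenylated RNA that is kept in the nucleus. The authors classed 10 of the 39 introns as detained (25.6%, against 15.5% of all introns), and normalised 2 h means were given for detained introns alone. The rule by which they set this class was not stated. These 10 lie in 6 genes: introns 5 and 7 of Srsf3, 9 and 12 of Srsf5, 6 and 8 of Srsf7, 4 and 5 of Srsf11, 3 of Srsf1 and 4 of Srsf6. Srsf2, Srsf4, Srsf9 and Srsf10 had none and so have no 2 h value. Intron numbers are the authors' and are not continuous. The rule behind them was not stated, so a skipped number is not read here as an intron lying in between.

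Most detained introns of the family border an exon that carries a stop codon. The introns of the table were matched to GENCODE vM21 by gene and exact length, and 9 of the 10 detained and 21 of the 29 other introns matched. Of the 9, 7 (77.8%) matched an intron found in transcripts annotated for nonsense-mediated decay but in no protein-coding transcript, against 2.68% of the 2832 matched detained introns of all genes. Among the 21 other introns of the family the share was 3 (14.3%), and over the 16354 other matched introns of all genes it was 1.19%. No test was made of these shares.

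In Srsf3, whose protein is known as an adaptor for messenger RNA export, introns 5 and 7 enclose an exon of 456 bases that no protein-coding transcript of the annotation holds. In Srsf7, which encodes an SR protein with a zinc knuckle, introns 6 and 8 enclose such an exon of 460 bases. The enclosed exon has 117 bases in Srsf11 (introns 4 and 5). In Srsf6, introns 2 and 4 enclose an exon of 268 bases, and intron 4 is the detained one. Intron 2 of Srsf6 is also spliced out of a protein-coding transcript, Srsf6-202, so an exon of that transcript begins at the same base. The exon of Srsf6 is therefore not counted as particular to decay transcripts. The first bases of the exons of Srsf3 and Srsf7 are shown through the stop codon that the annotation places there, with the stop codon in capitals (GENCODE vM21, GRCm38, Srsf3 on the plus strand at chr17:29039454-29039487 and Srsf7 on the minus strand at chr17:80205054-80205081).
Srsf3: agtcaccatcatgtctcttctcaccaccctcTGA
Srsf7: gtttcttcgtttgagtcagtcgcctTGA

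In Srsf3, Srsf7 and Srsf11 the intron before this exon lies within the coding sequence of the decay transcript, and the intron after it lies in the 3′ UTR. The frame closes after 31 bases of the exon in Srsf3 and after 25 bases in Srsf7. In Srsf11 the stop codon follows 47 bases of the exon, and in Srsf6 149 bases. The pair in Srsf5 leaves 534 bases between introns 9 and 12. Intron 9 matched a processed transcript without an annotated reading frame, and intron 12 was not matched. The detained intron of Srsf1 differs from these. Srsf1 encodes a founding member of the family, its intron 3 lies between coding exons, and it is spliced out of 1 set of protein-coding transcripts and kept in another, Srsf1-201.

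The 5′ splice sites show how the borders of the detained introns differ. They were read from annotated transcripts that hold the intron in an exon, which exist for 8 of the 10, and are given with 3 exon bases in lower case and the first 6 intron bases in capitals.
Srsf7 intron 6: cagGTATTT
Srsf5 intron 9: cagGTTTGT
Srsf7 intron 8: aagGTTTAT
Srsf3 intron 5: cagGTACTT
Srsf6 intron 4: gatGTAAGT
Srsf3 intron 7: ctaGTAAGT
Srsf11 intron 5: cagGTGATG
Srsf1 intron 3: gagGTAGGT

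The letters GTAAGT, searched at the first 6 intron bases as read in the transcript, were found in 2 of the 8, intron 4 of Srsf6 and intron 7 of Srsf3. They opened 9.63% of the 488 detained introns of all genes with a sequence of this kind and 11.6% of 1239 other introns. Of the family's introns that were not detained, 2 of the 5 with a sequence opened with GTAAGT. The detained introns of the family were short and poor in G and C, and its other introns were so to a lesser degree. The family's introns that were not detained had a median length of 826 bases, against 2044 bases over all introns not detained. The 5 of these with a sequence had a median GC content of 43.1%, against 49.0% over the 1239. The 10 detained introns had a median length of 318 bases, against 1562 bases over all 3454 detained introns, and the 8 with a sequence had a median GC content of 32.4%, against 48.3% over the 488. The shortest, intron 6 of Srsf7, has 180 bases and is shown whole because its ratio of KH-CB19 to DMSO at 2 h was the lowest of the family (GENCODE vM21, GRCm38, chr17:80205082-80205261, minus strand, with the 5′ splice site and the final AG in capitals).
Srsf7 intron 6: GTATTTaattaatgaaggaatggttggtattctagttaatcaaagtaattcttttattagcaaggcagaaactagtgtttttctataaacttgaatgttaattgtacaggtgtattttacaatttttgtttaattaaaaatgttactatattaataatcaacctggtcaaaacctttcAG

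The main comparison asked how the detained introns stood after 2 h of Clk inhibition. Of the 10 detained introns, 5 fell in the KH-CB19 group and 1 rose by the authors' deposited table, with the adjusted p set at below 0.05. Over all 3454 detained introns 4.17% fell and 5.47% rose, which makes 9.64% in either direction, against 6 of 10 here. The 5 falls lie in Srsf3, Srsf5, Srsf6 and Srsf7, and the rise in Srsf1. The median log2 ratio of KH-CB19 to DMSO was −0.59 over the 10 introns (quartiles −1.63 and −0.10) and −0.00 over all 3454 (quartiles −0.35 and 0.34), and 8 of the 10 ratios were below 0. No test was made of the list. Reads in these introns also depend on the amount of the transcript, and fewer transcripts and fewer unspliced transcripts cannot be told apart, since no exon value was used.

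**Figure D1:**
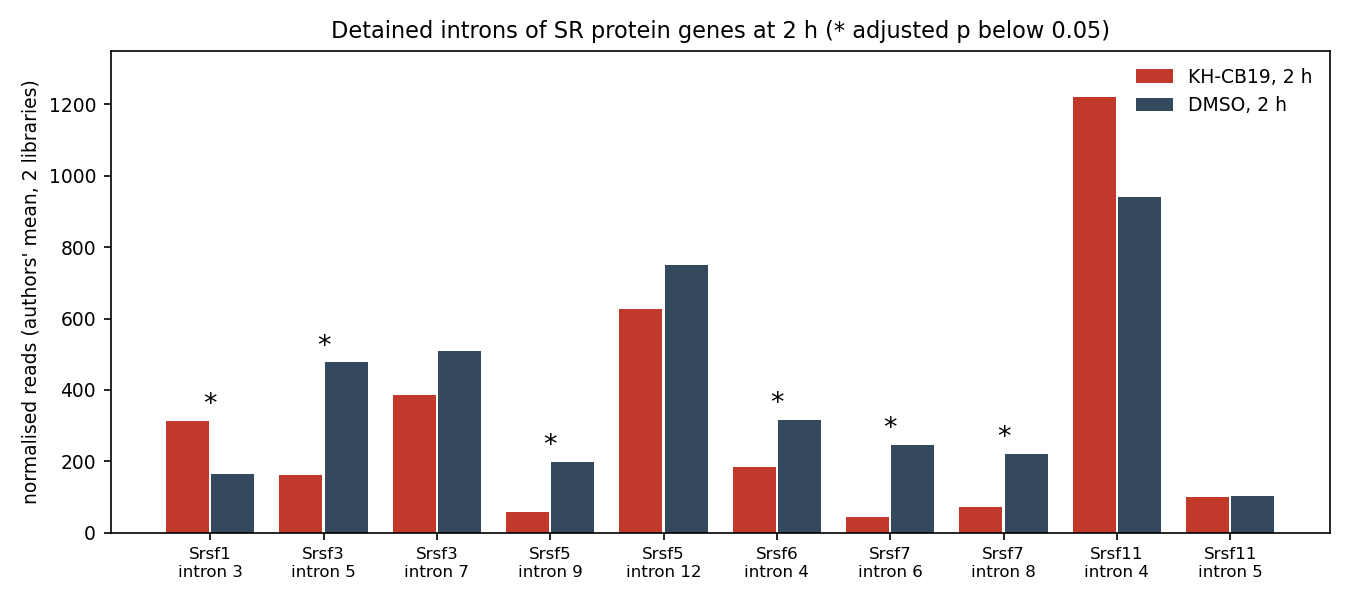
Normalised mean reads at 2 h (y axis, reads, the authors' mean of 2 libraries, no error available) in each detained intron of the 10 genes (x axis), for KH-CB19 (red) and DMSO (dark blue). Asterisks mark the 6 introns that passed by the authors' deposited table (adjusted p below 0.05), of which intron 3 of Srsf1 was higher and the other 5 lower in KH-CB19.

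Srsf7 had the largest fall, and it was the only gene of the family in which both detained introns fell. Intron 6 (chromosome 17, 80604422 to 80604601 on mm9) had 43.1 normalised reads in the KH-CB19 group and 247 in the DMSO group at 2 h in the authors' deposited table. This is a 5.73-fold difference, lower in KH-CB19 (log2 ratio −2.52, adjusted p = 2.06e-18, from the authors' deposited table). Of all detained introns, 6 had a lower ratio. At 0 h it had 191.0 observed reads in KH-CB19 and 311.5 in DMSO. Intron 8 of Srsf7 (chromosome 17, 80603728 to 80603961), on the other side of the stop-codon exon, had 70.9 normalised reads in KH-CB19 and 222 in DMSO. It was lower by 3.13-fold (log2 ratio −1.65, adjusted p = 1.36e-06, from the authors' deposited table). At 0 h it had 143.5 observed reads in KH-CB19 and 306.5 in DMSO.

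In Srsf5, whose protein acts as a splicing enhancer factor, intron 9 fell and intron 12 did not pass. Intron 9 (chromosome 12, 82048853 to 82049115) had 58.7 normalised reads in KH-CB19 and 199 in DMSO at 2 h, 3.39-fold lower (log2 ratio −1.76, adjusted p = 2.43e-09, from the authors' deposited table). At 0 h it had 136.0 observed reads in KH-CB19 and 245.5 in DMSO. Intron 12 (chromosome 12, 82049650 to 82050081) had 627 and 749 normalised reads in KH-CB19 and DMSO (log2 ratio −0.26, adjusted p = 0.447, from the authors' deposited table), and 557.0 and 813.0 observed reads at 0 h. The intron nearer the start of the gene thus had the lower ratio of the pair.

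The same order held in Srsf3. Intron 5, before the stop-codon exon (chromosome 17, 29175570 to 29176398), had 161 normalised reads in KH-CB19 and 477 in DMSO, 2.96-fold lower (log2 ratio −1.56, adjusted p = 1.52e-11, from the authors' deposited table). Intron 7, after that exon (29176855 to 29177719), had 387 normalised reads in KH-CB19 and 510 in DMSO (log2 ratio −0.40, adjusted p = 0.198, from the authors' deposited table). At 0 h these introns stood level, with 361.0 and 372.0 observed reads in the KH-CB19 group and 572.5 and 600.5 in the DMSO group.

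The 2 h log2 ratio of the upstream intron minus that of its downstream partner was −1.50 in Srsf5, −1.17 in Srsf3 and −0.87 in Srsf7. In Srsf11 it was 0.43. Whether the introns of a pair differ could not be tested, because the library values were not used here. Among all 501 pairs of detained introns that follow each other in 1 gene with at most 1000 bases between them, the upstream intron was the lower in 54.5%, and the median difference of the log2 ratios was −0.05 (quartiles −0.39 and 0.33).

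Intron 4 of Srsf6 (chromosome 2, 162758819 to 162759161) had the smallest fall that passed. It held 184 normalised reads in KH-CB19 and 317 in DMSO at 2 h, 1.72-fold lower (log2 ratio −0.78, adjusted p = 0.00492, from the authors' deposited table). At 0 h it held 292.0 observed reads in KH-CB19 and 431.5 in DMSO. Its partner across the stop-codon exon, intron 2, was not classed as detained and has no 2 h value.

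Srsf1 moved the other way. Intron 3 (chromosome 11, 87862718 to 87862913) had 313 normalised reads in KH-CB19 and 165 in DMSO at 2 h, 1.89-fold higher (log2 ratio 0.92, adjusted p = 0.00061, from the authors' deposited table). At 0 h the order was the other way, with 121.5 observed reads in KH-CB19 and 212.5 in DMSO, and a log2 ratio of −0.44 once centred on all detained introns. Of all 3454 detained introns, 195 had a higher ratio.

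Srsf11, which encodes an SR protein found with U2 auxiliary factor, had no intron past the threshold. Intron 4 (chromosome 3, 157686324 to 157689688) held the most reads of the 10 detained introns, with 1221 normalised reads in KH-CB19 and 939 in DMSO at 2 h (log2 ratio 0.38, adjusted p = 0.248, from the authors' deposited table). It was also the longest of the 10, at 3365 bases. Per kb of intron it had 276 observed reads in KH-CB19 and 406 in DMSO at 0 h, below the medians of 565 and 1009 over the 10. Intron 5 (157685915 to 157686206) had 99.5 and 103 normalised reads in KH-CB19 and DMSO (log2 ratio −0.05, adjusted p = 0.978, from the authors' deposited table). It had 71.0 observed reads in KH-CB19 and 134.0 in DMSO at 0 h.

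The groups harvested at 0 h show where the introns stood when the compound was added. Observed means at 0 h are unscaled, so each KH-CB19 to DMSO ratio was centred on the median over all detained introns, which was −0.37 on the log2 scale. All 10 detained introns of the family were below that median, with centred log2 ratios between −0.73 (intron 8 of Srsf7) and −0.18 (intron 12 of Srsf5) and a median of −0.33, against quartiles of −0.17 and 0.18 over all detained introns. Of the 35 introns of the family with a value in both groups, 26 were below 0 on this scale (median −0.18), against 7989 of 18080 introns of all genes (median 0.04). The table gives no test of this comparison, so these are descriptions of 2 group means.

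After the 0 h ratio was subtracted, the 5 falls stayed below 0 on the log2 scale and the rise of Srsf1 stayed above it. Intron 6 of Srsf7 was then at −2.18, intron 9 of Srsf5 at −1.28, intron 5 of Srsf3 at −1.27, intron 8 of Srsf7 at −0.92 and intron 4 of Srsf6 at −0.59, while intron 3 of Srsf1 was at 1.36. For intron 8 of Srsf7 this moved the fold by over 1.5 times. Of the introns that had not passed, intron 7 of Srsf3 was then at −0.07 and intron 12 of Srsf5 at −0.08. Intron 5 of Srsf11 changed direction, from −0.05 before subtraction to 0.50 after it, and intron 4 of Srsf11 was at 0.57.

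Read by treatment, the detained introns of the family stayed near the median of all detained introns in DMSO between the harvests. The log2 ratio of the 2 h to the 0 h mean, centred on the median of all detained introns, lay between −0.22 (intron 4 of Srsf11) and 0.20 (intron 12 of Srsf5) in the DMSO groups. In the KH-CB19 groups it ran from −2.16 (intron 6 of Srsf7) to 1.35 (intron 3 of Srsf1). Introns 5 of Srsf3 and 9 of Srsf5 stood at −1.18 and −1.23 in KH-CB19, against 0.06 and 0.02 in DMSO. These ratios use the same 2 h means as the comparison of treatments and are no separate support for it.

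**Figure D2:**
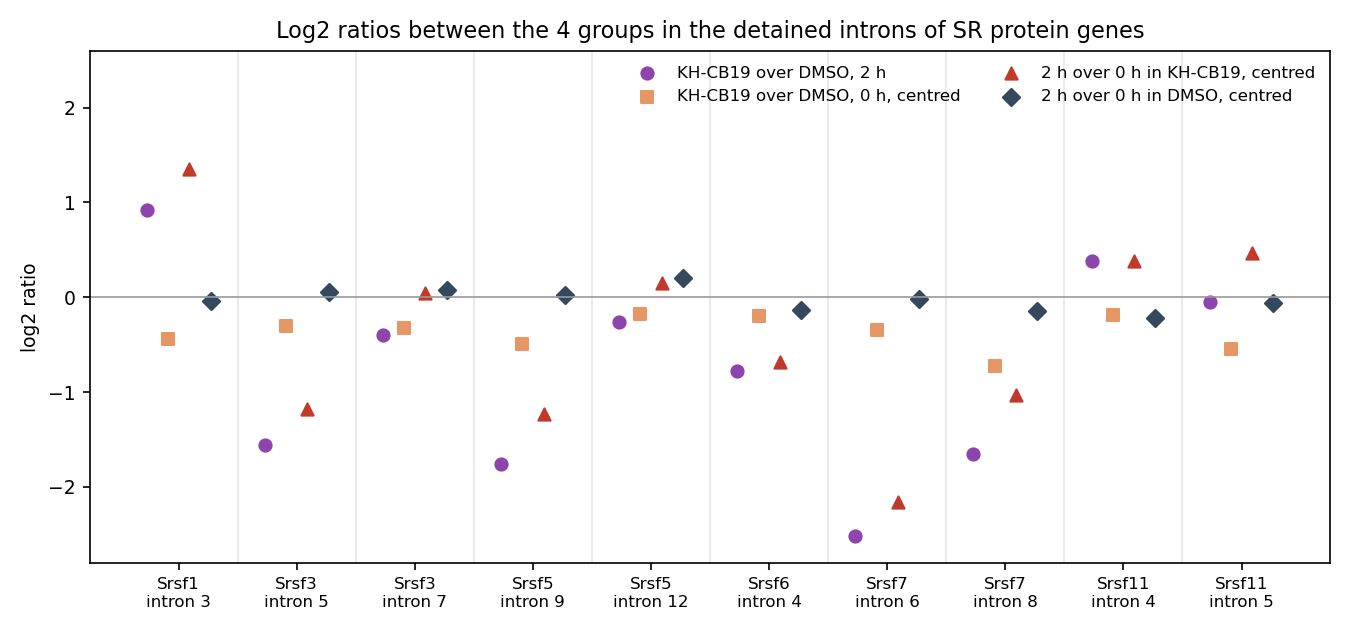
Log2 ratios (y axis) between the 4 group means in each detained intron (x axis): KH-CB19 over DMSO at 2 h (purple circles), the same at 0 h (orange squares), 2 h over 0 h in KH-CB19 (red triangles) and in DMSO (dark blue diamonds). All but the first are centred on the median over all detained introns. The diamonds stay between −0.22 and 0.20, and the triangles run from −2.16 to 1.35.

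The authors also compared observed with expected reads in each intron at 0 h. The expected reads of a gene summed to within 1% of its observed reads in 4 of the 10 genes in KH-CB19 and in 5 of 10 in DMSO. Among genes with a value in at least 2 introns, the share was 11.6% of 4457 genes in KH-CB19 and 13.4% of 4928 in DMSO. Srsf9 had a value in only 1 intron in KH-CB19, so that rule would leave it out there. Within a gene, the log2 ratio of expected reads in KH-CB19 to those in DMSO was nearly the same in every intron, between −0.65 and −0.64 in Srsf3 and at −0.71 in Srsf7. In the genes whose sums match, a ratio above expectation in 1 intron is balanced by ratios below it in others, so these ratios are not read here as the share of a gene left unspliced. How expected reads were made was not stated, and the sums do not match in most genes of the table, so the ratios of the family and of all introns may not be on 1 footing. The observed sum was lower by over 1% in only 46 of the 4457 genes in KH-CB19 and 51 of the 4928 in DMSO. The sums cover only introns with a value. In Srsf10 observed over expected was 1.001 in DMSO, and 1.241 in KH-CB19, where intron 4 has no value. By the authors' deposited table, 10 of the 35 introns with a value in KH-CB19 were above expectation at an adjusted p under 0.05 (28.6%, against 27.6% of all introns) and 14 below (40.0%, against 8.93%). In DMSO 12 of 39 were above (30.8%, against 28.2%) and 18 below (46.2%, against 10.9%).

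The detained introns of the family stood 2.12-fold over expectation in KH-CB19 and 2.21-fold in DMSO at the median, against 3.52-fold and 3.56-fold over all detained introns. Intron 4 of Srsf11 had the highest ratio of the family: 930.0 observed and 177.5 expected reads in KH-CB19, and 1366.5 observed and 265.5 expected in DMSO (log2 ratios 2.39 and 2.36, from the authors' deposited table). Intron 9 of Srsf5 was near the limit, with 136.0 observed and 114.5 expected reads in KH-CB19 (adjusted p = 0.465) and 245.5 observed and 173.5 expected in DMSO (adjusted p = 0.0462) in the authors' deposited table. At the other end was intron 6 of Srsf6, with 10 observed and 172.5 expected reads in KH-CB19 and 12 observed and 216.0 expected in DMSO (log2 ratios −4.11 and −4.17, from the authors' deposited table). Between these, intron 15 of Srsf7 had 468.0 observed and 326.5 expected reads in KH-CB19 (adjusted p = 0.0203) and 682.5 observed and 534.5 expected in DMSO (adjusted p = 0.0968), from the authors' deposited table. Intron 21 of the same gene was below expectation, with log2 ratios of −1.87 in KH-CB19 and −1.68 in DMSO. Intron 2 of Srsf1 was likewise below, at −1.10 in KH-CB19 and −1.49 in DMSO, and intron 6 of Srsf5 at −3.42 and −3.65. The undetained introns of Srsf11 ran from −1.30 (intron 17) to −4.09 (intron 10) in DMSO.

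**Figure D3:**
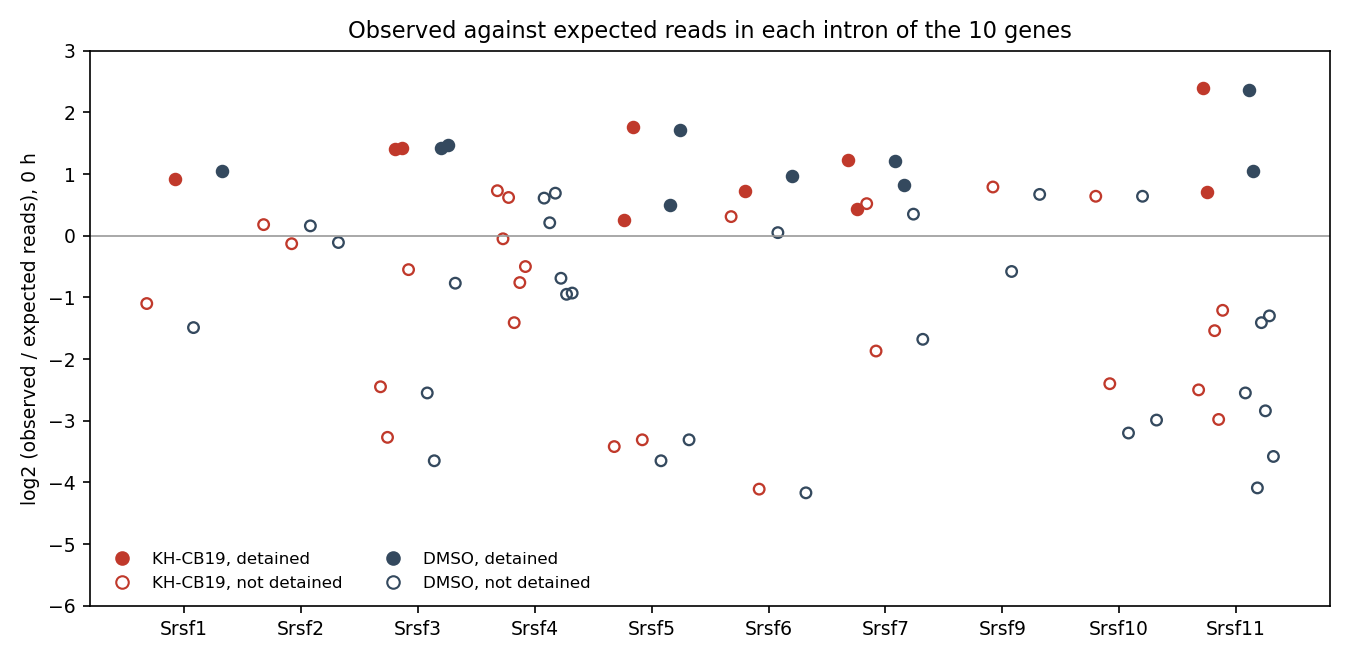
Log2 ratio of observed to expected reads at 0 h (y axis) for every intron of the 10 genes (x axis), in KH-CB19 (red, left) and DMSO (dark blue, right). Filled points are introns classed as detained, which lie between 0.25 and 2.39 in KH-CB19 and between 0.50 and 2.36 in DMSO, and open points are the others.

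Reads per kilobase of intron gave another order. They also depend on the amount of each gene's transcript, so they do not compare genes by the share left unspliced. The highest density of the family belonged to intron 2 of Srsf2, a gene that encodes a protein long used as a marker of nuclear speckles and has no detained intron. This intron (chromosome 11, 116713066 to 116713334) had 1509 observed reads per kb in KH-CB19 and 2433 in DMSO at 0 h, and intron 3 of Srsf2 (116712276 to 116712804) had 985 in KH-CB19 and 1637 in DMSO. Their log2 ratios to expectation were 0.18 and −0.13 in KH-CB19 and 0.16 and −0.11 in DMSO, with adjusted p between 0.486 and 0.66 in the authors' deposited table. Only these 2 introns of Srsf2 were listed, so the ratio of each depends on the reads in the other. Intron 2 of Srsf2 lies in the 3′ UTR in the annotation, and Mettl23 overlaps both introns there. Whether reads were counted by strand was not stated, so these values may hold reads of Mettl23.

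The detained introns of the family had a median of 565 reads per kb in KH-CB19 and 1009 in DMSO, against 38.3 and 49.5 over all detained introns. The densest of them were intron 12 of Srsf5 (1289 in KH-CB19, 1882 in DMSO) and intron 6 of Srsf7 (1061 in KH-CB19, 1731 in DMSO). The family's detained introns were also shorter, with a median of 318 bases against 1562. How reads that cross an intron edge were counted was not stated, and the effect of length on reads per kb was not tested. The other 25 introns of the family with a value in KH-CB19 had a median of 31.4 reads per kb, against 10.9 over all introns not detained. The other 29 in DMSO had a median of 40.7, against 12.4, so introns of the family that were not detained were also denser. Reads in neighbouring introns of a gene therefore differed widely. Introns 4 and 8 of Srsf3 had 11.0 and 151 reads per kb in KH-CB19 and 13.2 and 204 in DMSO, while introns 5 and 7 had 435 and 430 in KH-CB19 and 691 and 694 in DMSO. The share of a gene's listed intron reads that lay in its detained introns ran from 39.3% in KH-CB19 and 44.4% in DMSO in Srsf7 to 95.6% in KH-CB19 and 96.0% in DMSO in Srsf5. It was 45.8% in KH-CB19 and 54.3% in DMSO in Srsf6, 70.8% and 77.7% in Srsf1, 84.7% and 86.7% in Srsf3, and 87.2% and 86.0% in Srsf11.

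**Figure D4:**
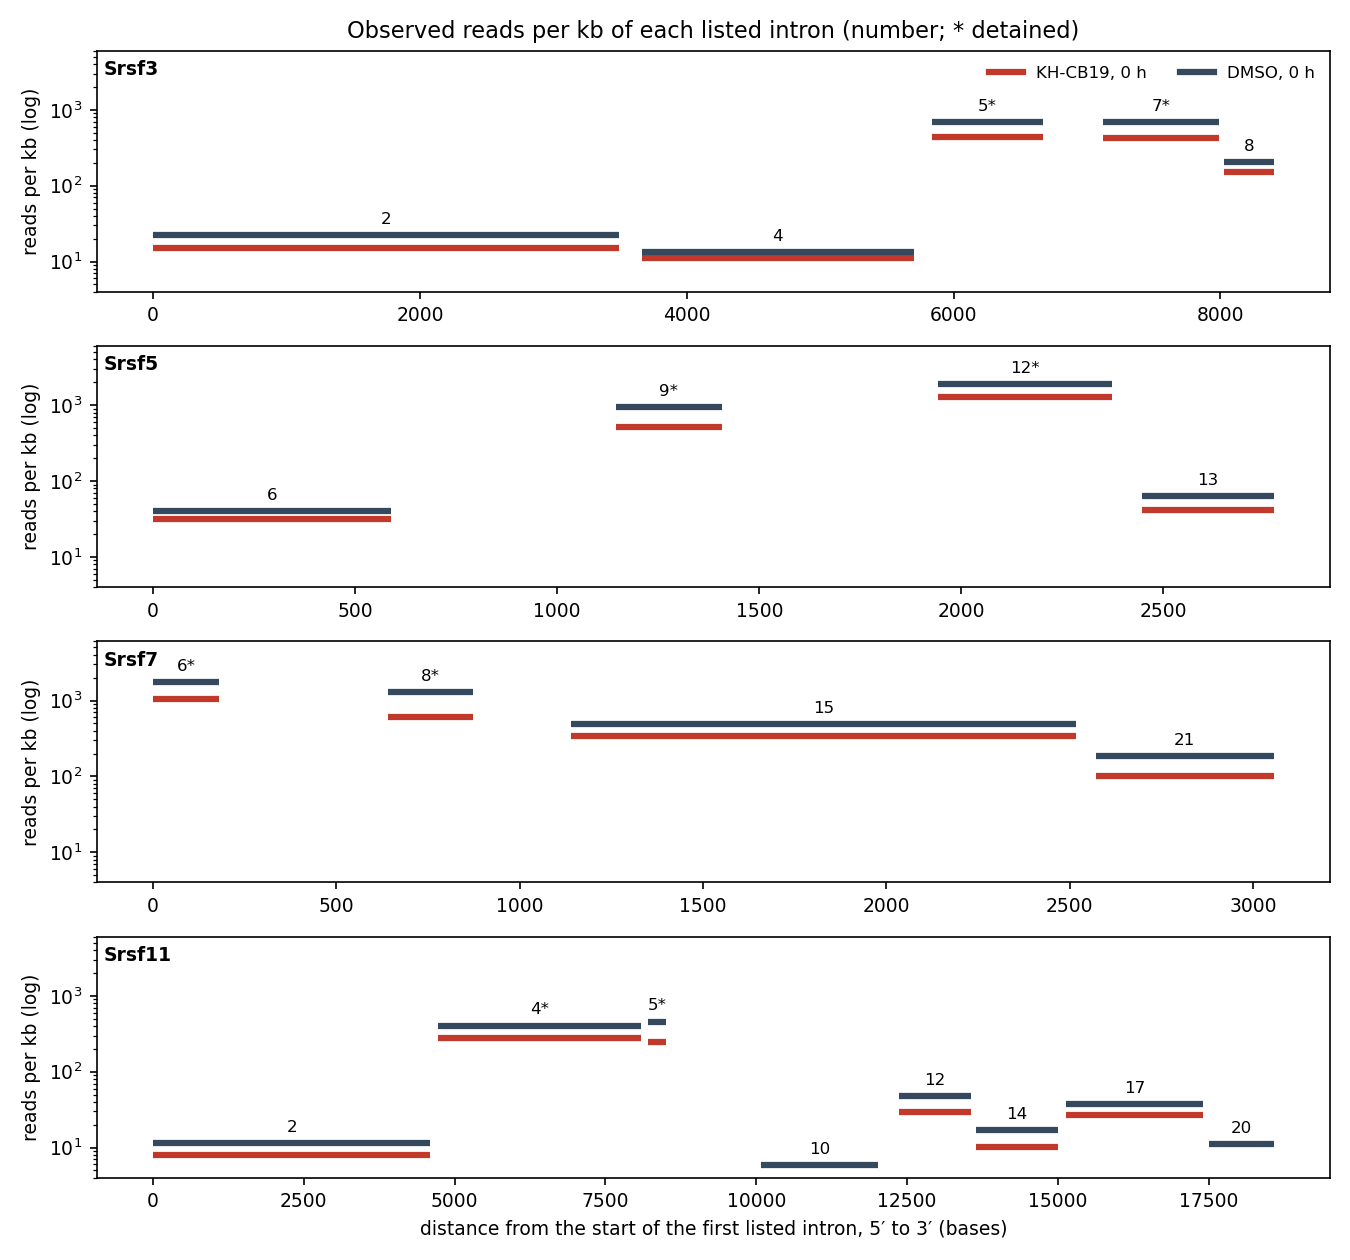
Observed reads per kb at 0 h (y axis, log scale) along Srsf3, Srsf5, Srsf7 and Srsf11, in KH-CB19 (red) and DMSO (dark blue). Each line spans a listed intron, drawn to scale from the start of the first listed intron, 5′ to 3′ (x axis, bases), and asterisks mark detained introns. In Srsf3 introns 5 and 7 stand at 435 and 430 reads per kb in KH-CB19 and 691 and 694 in DMSO, above the other introns of the gene.

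The genes without a detained intron were not alike. In Srsf10, which encodes a factor known to repress splicing when dephosphorylated, intron 5 (chromosome 4, 135415117 to 135417685) had 633.5 observed and 407.5 expected reads in KH-CB19 and 888.5 and 571.0 in DMSO. It was above expectation in both groups (log2 ratio 0.64 in each, adjusted p = 0.00242 in KH-CB19 and 0.00102 in DMSO, from the authors' deposited table). Intron 4 of Srsf10 had 55.4 reads per kb in DMSO, against 346 in intron 5. In Srsf4, the decay transcripts carry a stop-codon exon just before intron 3, as Srsf3 does before intron 7, and no intron of the gene was detained. That intron 3 of Srsf4 had few reads, with 54.0 observed and 32.5 expected in KH-CB19 and 62.0 and 40.5 in DMSO. Its excess did not pass (adjusted p = 0.1 in KH-CB19 and 0.137 in DMSO, from the authors' deposited table). Intron 5 of Srsf4 had 130.0 observed and 84.5 expected reads in KH-CB19 and 169.0 and 104.5 in DMSO. It was above expectation in both groups (adjusted p = 0.045 in KH-CB19 and 0.0116 in DMSO, from the authors' deposited table). Intron 7 of Srsf4 was below expectation in both, with 44.0 observed and 74.5 expected reads in KH-CB19 and 48.0 and 92.5 in DMSO. Srsf9 had the fewest reads. Its intron 3 had 40.5 observed reads in KH-CB19 and 44.5 in DMSO, and its intron 2 had 13 in DMSO, with no adjusted p below 0.05. These introns overlap by 776 bases and may share reads.

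Other genes of the pathway were read from lists chosen with earlier results known. Over all 3454 detained introns 4.17% fell and 5.47% rose, and no test was made of the lists. Of the 11 detained introns of kinases that act on SR proteins 6 fell and 0 rose, all in Clk1 and Clk4, with a median log2 ratio of −0.78. Intron 5 of Clk1 had 41.6 normalised reads in KH-CB19 and 493 in DMSO in the authors' deposited table (log2 ratio −3.56, adjusted p = 4.02e-44). Among 44 detained introns of SR-related proteins and Tra2 factors 7 fell and 3 rose, with a median of −0.10. The largest of these falls was in intron 27 of Rbm25 (log2 ratio −1.66, adjusted p = 0.000149, from the authors' deposited table). The largest of the rises was in intron 4 of Srrm1 (log2 ratio 1.69, adjusted p = 1.62e-11, from the authors' deposited table). Intron 2 of Tra2b, a splicing activator, had 211 normalised reads in KH-CB19 and 405 in DMSO in the authors' deposited table (log2 ratio −0.94, adjusted p = 0.000461). Both called introns of Bclaf1, which encodes a protein rich in arginine and serine, fell (log2 ratios −1.20 and −0.90 for introns 8 and 17, from the authors' deposited table). Intron 21 of Srrm2, which encodes a large scaffold protein of nuclear speckles, rose, with 309 normalised reads in KH-CB19 and 137 in DMSO in the authors' deposited table (log2 ratio 1.17, adjusted p = 1.02e-05). None of the 3 detained introns of the importers Tnpo1 and Tnpo3, or of the 2 detained introns of the phosphatase genes Ppp1cb and Ppp1cc, passed the threshold in the authors' deposited table. So few introns cannot be told from the 9.64% called in either direction over all detained introns.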

How the data were processed

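Polyadenylated RNA of v6.5 cells was sequenced from stranded, paired-end libraries, per the labels' protocols. The submitters' processing notes name build mm9, DESeq, TopHat2 2.0.9 with Bowtie 1.0.0, Cufflinks 2.1.1, bedtools 2.17.0 and SAMtools 0.1.19. Settings, the rule for the detained class, and how expected reads were made, were not given in the sources used here. Per the file headers, the deposited 0 h values are mean counts of 2 libraries with a log2 ratio of observed to expected reads and an adjusted p-value. The deposited 2 h values are normalised means (a signal, not whole counts), with a log2 ratio and adjusted p-value of KH-CB19 against DMSO, taken to be DESeq's. Introns with few reads carry a word for low coverage in place of values, in 4 members in KH-CB19 and 0 in DMSO.

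No test was added to the authors' p-values. Centred ratios, reads per kb, counts and medians were computed with pandas 2.3.3 and NumPy 2.4.6 (Python 3.11.15). Deposited starts count from 0 and are printed from 1. Introns were matched to GENCODE vM21 (GRCm38) by symbol and exact length, and sequences were read from its transcripts. Every intron of the family with a 2 h value was named, and of the pathway introns only some of those past 0.05. Members, lists and comparisons were chosen with earlier results of these data known. The design assumed the authors' means and, as planned, was described without replicate errors. The step that recovers unadjusted p-values was tested on simulated data.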

Additional observations from a re-analysis of the deposited data

How the results depend on the processing

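Of the settings tried, a stricter threshold of 0.01, a 2 h mean of at least 50 reads and counting genes in place of introns left the counts of falls and of rises at 2 h within 1.5 times. An unadjusted p below 0.05, recovered from the authors' adjusted p, gave 6 falls, intron 7 of Srsf3 being added. Pseudocounts of 0.1, 1 and 10 left every direction as it was, and the median log2 ratio at 2 h lay between −0.88 (median within each gene first) and −0.33 (0 h ratio subtracted). At 0 h, asking also for a log2 ratio of at least 1 left 5 introns above expectation in KH-CB19 and 7 in DMSO, and asking for 50 observed reads left 7 below expectation in DMSO, all by fewer introns being counted. Counting the rise after the 0 h ratio was subtracted, and by gene, was chosen after seeing the data. No library could be left out, because only group means were used. No paired analysis was possible because the columns carry no replicate numbers. Depth at 2 h is known for detained introns only, so Srsf2, Srsf4, Srsf9 and Srsf10 could not be read there.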
